A study of Danio rerio with 9 samples.

Results

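Among the transcripts assembled from zebrafish (Danio rerio) heart and muscle RNA, 224 of 103079 were abundant in adult muscle and low in heart. They were chosen by their FPKM, an expression unit in which fragment numbers are scaled by the length of the transcript and the size of the library. A transcript was taken when it exceeded 10 FPKM in each of 3 adult muscle samples and stayed below 0.5 FPKM in each of 3 adult heart and 3 embryonic heart samples. LincRNAs, the long intergenic noncoding RNAs, that the study listed as expressed in heart were to be left out. None of the 813 such lincRNAs met the FPKM conditions, although 51 of them exceeded 10 FPKM in each muscle sample. The values that chose these transcripts were those of all 9 samples, so their difference between muscle and heart is described here without a test.

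RNA-seq was performed on wild-type zebrafish, which the Methods name as the WIK strain. Adult muscle was taken from adult fish of unspecified age, adult heart at 6 months, and embryonic heart at 4 days post fertilization, without any mutation or treatment. The labels do not state which muscle was dissected, or whether the samples of a tissue type came from separate animals or pools. The p-values therefore measure only the spread between these samples. In bulk tissue, fewer cells of a type and less RNA per cell cannot be told apart.

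Skeletal and cardiac muscle both contract through sarcomeres, in which myosin filaments pull on actin filaments. Many sarcomeric and calcium-handling proteins exist in skeletal and cardiac forms, which are made from separate genes or from alternative transcripts of the same gene. Skeletal fibers also need nerve input at the neuromuscular junction, whereas heart muscle beats on its own rhythm. Because the deposited values carry identifiers of the assembly without gene names, none of these protein families could be looked up, and the labelled tissues could not be checked against marker genes. The transcripts are described below by their level, their samples, and their place in the assembly.

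In adult muscle, the 224 transcripts spanned a wide range of levels, with most of them moderate and a few extreme. The mean of the 3 muscle samples was 11.5 FPKM for the lowest transcript, 28.8 FPKM for the median transcript, and 365432 FPKM for the highest. Of the 224, 68 had a mean below 20 FPKM, 130 had a mean between 20 and 100 FPKM, 21 had a mean between 100 and 1000 FPKM, and 5 exceeded 1000 FPKM. Even the lowest of them stood at the 95.3 percentile of all transcripts by mean level in muscle. The plot of ranked levels shows a nearly even slope on the log scale over most ranks, and a steep rise among the first few.

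**Figure D1:**
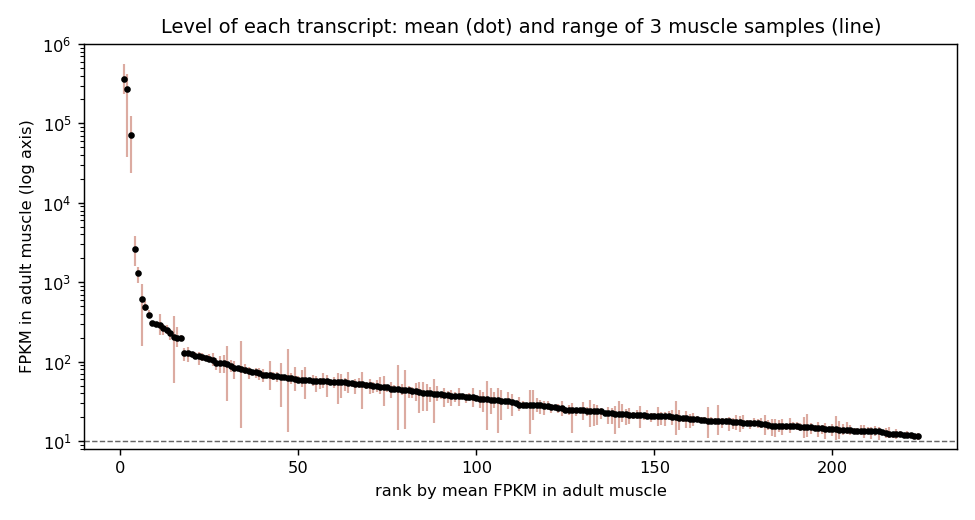
FPKM in adult muscle (log axis) of the 224 transcripts, ranked by their mean (black dots), with lines from the lowest to the highest of the 3 muscle samples and a dashed line at 10 FPKM. The means run from 365432 FPKM at rank 1 to 11.5 FPKM at rank 224, and 198 transcripts lie at or below 100 FPKM.

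The transcript with the highest mean, TCONS_00003123, had 233062, 300518, and 562716 FPKM in adult muscle replicates 0, 1, and 2, and was listed at 0 in all 6 heart samples. The next, TCONS_00051767, had 417156, 37989, and 349579 FPKM in the same muscle samples, and was also listed at 0 in every heart sample. For both, the muscle and heart samples were far apart, but the muscle samples differed among themselves, with a 10.98-fold gap between the highest and lowest muscle sample of TCONS_00051767. The transcript at rank 3 had 24036, 65172, and 124649 FPKM in muscle. The transcript at rank 4 had 2360, 1613, and 3804 FPKM. Both were listed at 0 in all 6 heart samples, and again the 3 muscle samples were unequal.

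Levels of this size were rare in the whole assembly, where 79 transcripts exceeded 10000 FPKM in any sample. In each sample, the 19 to 27 transcripts above 10000 FPKM in that sample held between 74.1% and 96.7% of its summed FPKM. The 3 highest muscle-restricted transcripts held between 96.3% and 98.4% of the FPKM summed over the 224 in each muscle sample. As a consequence, the share of all muscle FPKM held by the 224 was set by very few of them. This share was 17.6%, 13.4%, and 22.7% in muscle replicates 0, 1, and 2 (mean, 17.9%; SD, 4.67; n = 3). Without the 3 highest transcripts the share was 0.402% (SD, 0.0839; n = 3). When all transcripts above 10000 FPKM in any sample were removed from both sums, it was 2.17% (SD, 0.0981; n = 3). In the heart samples the 224 transcripts held between 6.87e-05% and 0.000528% of the summed FPKM. FPKM is scaled by transcript length, and the lengths were not available here. A share of summed FPKM is therefore not a share of sequenced fragments. Whether length contributed to the extreme levels was not tested.

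Across samples, the median of the 224 was 24.7, 28.3, and 31.4 FPKM in adult muscle replicates 0, 1, and 2. The medians were 0.00431, 0.0261, and 0.0153 FPKM in adult heart replicates 0, 1, and 2, and below 0.0001 FPKM in each embryonic heart sample. The corresponding heart medians over all transcripts are not given here. The gap between the hearts, among values near 0, is therefore not read as a result.

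**Figure D2:**
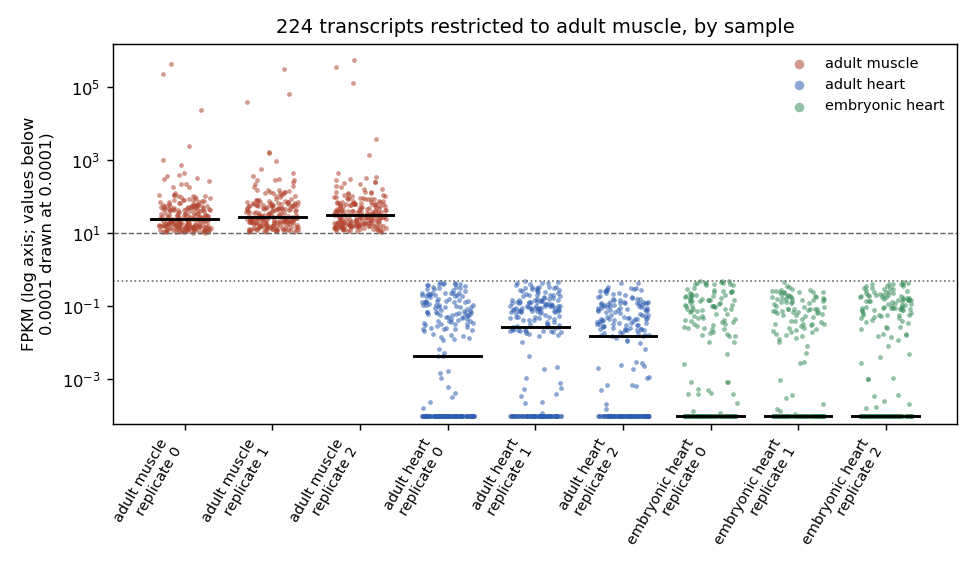
FPKM (log axis) of the 224 transcripts in each of the 9 samples, with 1 dot per transcript and a black bar at the median of the sample. The dashed and dotted lines mark the thresholds of 10 and 0.5 FPKM, and values below 0.0001 FPKM are drawn at 0.0001. The muscle medians lie between 24.7 and 31.4 FPKM, whereas heart values fall into a band below 0.5 FPKM and a row at the bottom of the axis.

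Most of the 224 transcripts were not listed at exactly 0 in heart. A value of 0 was listed for 192 of the 1344 heart values (14.3%), and 688 of them (51.2%) were below 0.001 FPKM. In 157 transcripts no heart sample was listed at 0. All 6 heart samples were below 0.1 FPKM for 99 transcripts and below 0.001 FPKM for 42 transcripts. In contrast, 75 transcripts had a mean above 0.1 FPKM in at least 1 of the heart tissues. The study's Results counted lincRNAs as expressed at this mean level. Its Methods applied the level to single samples of a group instead, and transcripts meeting that rule were not counted here. Fragment numbers behind the heart values are unknown.

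Only 13 of the 224 were listed at 0 in all 6 heart samples, and these included 5 of the 6 transcripts with the highest level in muscle. The coefficient of variation across the muscle samples had a median of 47.7% in these 13 and of 17.3% in the other 211. The level in muscle differed by more than 3-fold between samples in 6 of the 13 and in 8 of the other 211. These are descriptions within the list and carry no test. A value listed at 0 may be a failed estimate, and how much this contributed was not tested.

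The difference between muscle and heart was taken as log2(mean FPKM + 0.1) in muscle minus the same quantity over the 6 heart samples. The added 0.1 understates the difference for values near 0. Among the 224, the lowest difference was 5.21, the median was 7.65, and the highest was 21.80. The median over the other transcripts above 10 FPKM in each muscle sample was 0.70. Because the thresholds fixed this difference, it carries no test. Just inside the muscle threshold, the lowest muscle value was 10.2 FPKM, and just outside it was 9.88 FPKM. Just inside the heart threshold, the highest heart value was 0.491 FPKM, and just outside it was 0.509 FPKM.

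To describe the transcripts with values that had not chosen them, the same thresholds were applied to 8 samples, and the remaining sample was then examined. When muscle replicate 0 was left out, 266 transcripts were chosen, of which 84.2% exceeded 10 FPKM in it. For muscle replicate 1, this was 94.5% of 237 transcripts, and for muscle replicate 2 it was 95.7% of 234 transcripts. Among the remaining transcripts above 10 FPKM in 2 muscle samples, the shares were 92.0%, 93.4%, and 96.8% for replicates 0, 1, and 2. For both sets the share was lowest in replicate 0. Of the transcripts chosen without replicate 0, 1, or 2, a value of 0 was listed in that replicate for 8, 3, and 4. The shares below 0.5 FPKM in that replicate were 3.01%, 1.27%, and 1.71%. Among the remaining transcripts these shares were lower, at 0.541%, 0.869%, and 1.04%.

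When a heart sample was left out, between 229 and 244 transcripts were chosen. Between 91.8% and 97.8% of them were below 0.5 FPKM in that heart sample. The exceptions were mostly small. However, 1 transcript reached 1856 FPKM in adult heart replicate 0, and 2 exceeded 10 FPKM in adult heart replicate 1. No transcript chosen without an embryonic heart sample exceeded 10 FPKM in it, and the highest value was 3.48 FPKM in replicate 2.

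The spread between muscle samples was then set beside that of the other transcripts of muscle, as a description without a test. The coefficient of variation of the 224 had a median of 18.0% (quartiles, 11.8% and 27.1%), against 13.0% in the 4134 other transcripts above 10 FPKM in each muscle sample. The median level of both sets was similar, at 28.8 and 27.9 FPKM. The highest and lowest muscle samples were within 1.5-fold for 58.0% of the 224 and for 76.6% of the others. They differed by more than 3-fold for 14 of the 224 (6.25%) and for 3.43% of the others. The most even was the transcript at rank 10, with 298.0, 292.0, and 298.1 FPKM in muscle replicates 0, 1, and 2.

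The direction of this spread was also uneven. Muscle replicate 1 was the highest of the 3 samples for 108 of the 224 (48.2%), against 30.9% of the other muscle transcripts, and replicate 0 was the lowest for 131 of the 224 (58.5%), against 51.5% of the others. The median log2 difference of replicate 0 minus replicate 1 was -0.26 in the 224 and -0.08 in the other muscle transcripts. Pearson's r between muscle samples, taken across the log2 values of the 224 transcripts, which do not count as replicates, was 0.925 to 0.962, and 0.865 to 0.922 without the 3 highest. The labels give no dissection or fiber type for the muscle samples, and whether these moved with the spread was not tested.

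Some transcripts that were unequal between muscle samples changed together with others of similar identifier. On chromosome 16, transcripts separated by 1 identifier had 14.8, 179.7, and 49.8 FPKM and 12.9, 142.6, and 34.1 FPKM in muscle replicates 0, 1, and 2. Both were highest in replicate 1 and lowest in replicate 0, with a 12.1-fold and an 11.1-fold gap. On chromosome 23, 3 consecutive identifiers showed the opposite order. The first had 44.0, 12.2, and 29.6 FPKM, the second had 96.7, 26.9, and 70.9 FPKM, and the third had 46.4, 12.5, and 39.2 FPKM. All 3 were lowest in replicate 1 and highest in replicate 0. Not all such neighbors changed together. On chromosome 4, 3 consecutive identifiers had 54.9, 43.6, and 103.4 FPKM, 18.4, 34.4, and 44.4 FPKM, and 29.2, 13.8, and 57.2 FPKM. The last of these had a 4.14-fold gap. It was lowest in replicate 1, as was the transcript with the lowest identifier, whereas the transcript between them was lowest in replicate 0. All 3 were highest in replicate 2. Of the 14 most unequal transcripts, 7 were lowest in replicate 1, 6 in replicate 0, and 1 in replicate 2.

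**Figure D3:**
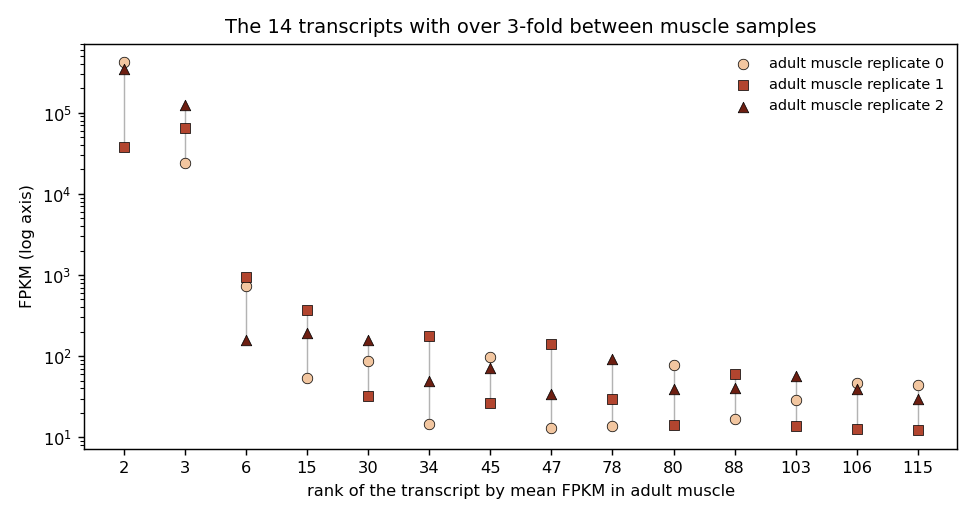
FPKM (log axis) in muscle replicates 0 (circles), 1 (squares), and 2 (triangles) for the 14 muscle-restricted transcripts with more than 3-fold between their highest and lowest muscle sample, ordered by rank of the mean. Ranks 34 and 47 are the chromosome 16 transcripts, high in replicate 1, and ranks 45, 106, and 115 are the chromosome 23 transcripts, low in replicate 1.

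The assembly numbers transcripts mostly in order along the chromosomes, so neighboring identifiers can be forms of the same locus or nearby loci. Of 747 pairs of listed lincRNAs adjacent by identifier on the same chromosome, 706 were in ascending order. Where the order breaks, nearby loci can have distant identifiers, and these were not counted as neighbors. Another muscle-restricted transcript lay within 3 identifiers for 78 of the 224 (34.8%). This share was 2.59% for the other transcripts above 10 FPKM in each muscle sample and 1.11% for all transcripts. The sets were closer when any transcript above 10 FPKM in each muscle sample, restricted or not, counted as a neighbor. The shares were then 60.3% for the 224, 48.5% for the other muscle transcripts, and 19.6% for all transcripts. The 224 formed 178 groups at this spacing, of which 146 were single transcripts, 23 were pairs, and 9 held 3 or more. The longest groups held 5 transcripts. Transcripts of the same locus share sequence, and the authors' assignment of fragments can divide reads among them, so members of a group are not independent.

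Neighbors with expression in heart were counted in the same way. A transcript with a mean above 1 FPKM in a heart tissue lay within 3 identifiers for 72.8% of the 224, for 92.1% of the other muscle transcripts, and for 76.2% of all transcripts. For a mean above 10 FPKM in heart, the shares were 29.5%, 52.3%, and 27.8%. The shares of the 224 lay below those of the other muscle transcripts and close to those of all transcripts. They carry no test, because neighbors can share a locus.

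The densest stretch held 9 of the 224 within 20 consecutive identifiers on chromosome 9. Their means in muscle ranged from 12.1 to 126.7 FPKM. The highest had 97.9, 152.6, and 129.8 FPKM in muscle replicates 0, 1, and 2, and the lowest had 12.5, 12.2, and 11.4 FPKM. Their coefficients of variation were between 4.72% and 21.7%, against a median of 18.0% over the 224. No heart value in these 9 exceeded 0.379 FPKM. The other 11 transcripts of the stretch had means of at most 6.21 FPKM in muscle and at most 0.0269 FPKM in a heart tissue, so the whole stretch was low in heart. On chromosome 2, a pair had muscle means of 489.0 and 251.1 FPKM.

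Chromosomes were inferred from the lincRNAs on either side of each identifier, whose chromosomes the study listed. In a check on the lincRNAs themselves, 706 of 813 could be placed in this way, all 706 of them on the right chromosome. Of the 224 transcripts, 204 were placed, and they fell on all 25 chromosomes, with a median of 8 per chromosome. Chromosomes 3 and 5 held 18 each, and chromosomes 7 and 9 held 15 each. As a share of the transcripts above 10 FPKM in each muscle sample, the 224 made up 5.08% over all placed transcripts. The share was highest on chromosome 9, at 10.9% (15 of 137), followed by chromosome 24 (12 of 120). It was lowest on chromosome 14, at 0.641% (1 of 156). Since neighbors were counted separately, the dense stretch contributed 9 of the 15 on chromosome 9. Exact positions and exon structures were not analysed here.

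**Figure D4:**
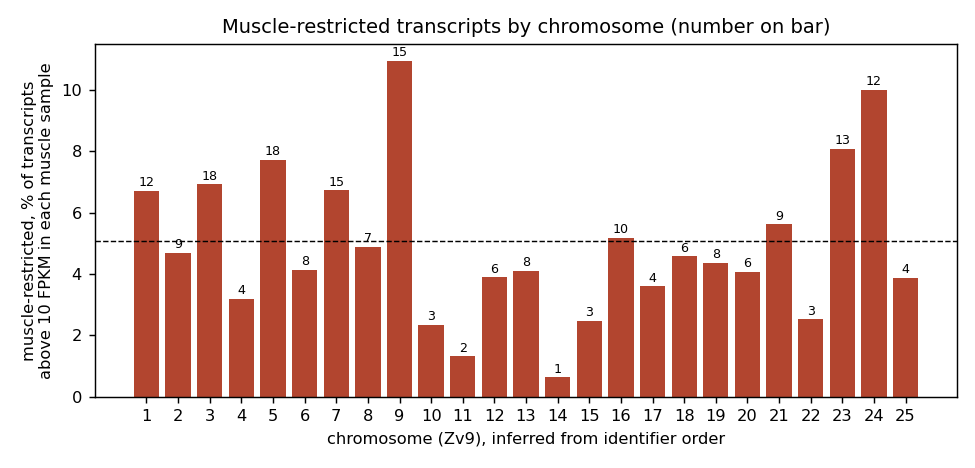
Muscle-restricted transcripts as a percentage of all transcripts above 10 FPKM in each muscle sample, for the 25 chromosomes of Zv9, with the number of muscle-restricted transcripts on each bar and a dashed line at 5.08%, the share over all chromosomes. Chromosome 9 reaches 10.9%, chromosome 24 comes next with 12 of 120 transcripts, and chromosome 14 has 0.641%.

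The same thresholds applied to the other tissues gave shorter lists. Of the 4358 transcripts above 10 FPKM in each adult muscle sample, 5.14% were restricted to muscle. The corresponding numbers were 21 of 4071 (0.516%) for adult heart alone and 30 of 3616 (0.830%) for embryonic heart alone, each set against the other heart as well as muscle. For both hearts against muscle, there were 68 of 2620 (2.60%). The median level was 28.8 FPKM in the muscle list, 20.5 FPKM in the adult heart list, 51.9 FPKM in the embryonic heart list, and 52.7 FPKM in the list of both hearts. The median coefficient of variation was 18.0%, 29.8%, 39.1%, and 44.9% in the same order, the last taken across the samples of both hearts. A wide spread was thus not particular to the muscle list. The list of both hearts required more samples above 10 FPKM than the other lists. Each single-heart list also required a low level in the other heart. LincRNAs that the study listed as expressed in heart were left out of every list but kept in the totals above 10 FPKM. This removed none from the muscle list, and how many it removed from the heart lists was not counted. The heart lists and their shares may therefore be too low beside the muscle list. All lists rest on thresholds, so the numbers are a description.

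The thresholds did not use the difference between adult and embryonic heart, but they held each of the 6 heart values below 0.5 FPKM, which limits what can be called. It asks whether the traces of these transcripts in heart differ between stages. In limma on log2(FPKM + 0.1), with Benjamini-Hochberg adjustment over 69118 transcripts, 17 of the 224 (7.59%) passed both conditions for a call, namely an adjusted p under 0.05 and means more than 2-fold apart. Of all transcripts tested, 19.4% were called. The background was 12.2% for calls higher in adult heart and 7.23% for calls lower in adult heart, and 11 and 6 of the 224 were called in these directions. All 224 passed the filter on low values through their level in muscle, and all but 75 had a mean of at most 0.1 FPKM in both hearts, so the lower share among the 224 is not read as a result. In a fit limited to transcripts with a mean above 0.1 FPKM in a heart tissue, 17 of 75 muscle-restricted transcripts (22.7%) were called, close to the 21.9% of all transcripts in that fit. The median log2 difference in that fit was 0.15 over the 75 and 0.25 over all its transcripts. In the main fit it was 0.00 over the 224 and 0.18 over all transcripts tested. Values near 0 in both hearts give a difference near 0, so the median over the 224 is not read as a result.

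Of the 11 transcripts called higher in adult heart, 6 were below 0.001 FPKM in every embryonic heart sample. The other 5 had a highest embryonic heart value between 0.0899 and 0.112 FPKM. TCONS_00083125 had 0.450, 0.491, and 0.210 FPKM in adult heart replicates 0, 1, and 2, and below 0.001 FPKM in each embryonic heart sample. Its log2 fold change was 2.22 (SE, 0.366; adjusted p = 0.00358 in limma). TCONS_00029549 had 0.417, 0.461, and 0.443 FPKM in adult heart, against 0.104 FPKM in embryonic heart replicate 0 and below 0.001 FPKM in the other two. Its log2 fold change was 2.09 (SE, 0.363; adjusted p = 0.00454 in limma). In both, every adult heart sample exceeded every embryonic heart sample.

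Of the 6 transcripts called lower in adult heart, 3 had no adult heart value above 0.0220 FPKM, and the other 3 reached between 0.107 and 0.136 FPKM there. TCONS_00065574 had below 0.001, 0.0207, and 0.0220 FPKM in adult heart replicates 0, 1, and 2, against 0.479, 0.272, and 0.459 FPKM in embryonic heart. Its log2 fold change was -2.12 (SE, 0.284; adjusted p = 0.00129 in limma). TCONS_00063805 had below 0.001, 0.0160, and 0.0165 FPKM in adult heart, against 0.436, 0.161, and 0.205 FPKM in embryonic heart. Its log2 fold change was -1.66 (SE, 0.361; adjusted p = 0.0125 in limma). The adult and embryonic heart samples did not overlap in any of the 17 transcripts called. The call itself favors such separation, and its share over all called transcripts was not counted, so it adds no support.

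The 17 had log2 fold changes between 1.29 and 2.22 where higher and between -2.12 and -1.05 where lower in adult heart. They ranked between 32 and 223 by level in muscle. The calls depended on the pseudocount. At a pseudocount of 1 FPKM, limma called 0 of the 224, with 4 at an unadjusted p below 0.05, and all 17 were lost. The same fit still called 11924 of all 69118 transcripts tested. The main fit also drew its estimate of spread from the muscle samples. With heart samples only, limma called 18 of the 224 and 11383 of all transcripts. The adjusted p in that limma fit was 0.0131 for TCONS_00083125 and 0.0279 for TCONS_00029549. It was 0.0133 for TCONS_00065574 and 0.0289 for TCONS_00063805. Some of the 17 missed 0.05 there, with an adjusted p of up to 0.120. The split by direction also depended on the scaling. Quantile normalization called 21, of which 6 were higher and 15 lower in adult heart. Over all transcripts tested, it called 6791 higher and 6184 lower, against 8423 and 4996 without this normalization. The number of fragments behind values below 0.5 FPKM is unknown.

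**Figure D5:**
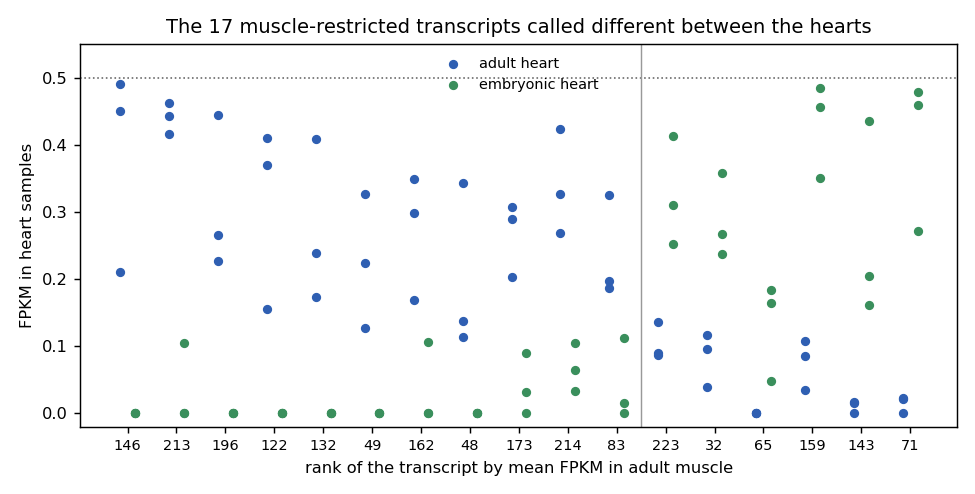
FPKM in the 3 adult heart samples (blue) and the 3 embryonic heart samples (green) of the 17 muscle-restricted transcripts called between the hearts, with the threshold of 0.5 FPKM as a dotted line. The 11 to the left of the vertical line were higher and the 6 to the right were lower in adult heart. No adult heart sample overlaps the embryonic heart samples for any of the 17, a separation that the call itself favors.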

How the data were processed

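RNA-seq was done on 3 samples each of adult muscle, adult heart, and embryonic heart. The authors aligned reads to Zv9 with TopHat2 2.0.12, assembled transcripts with Cufflinks 2.2.1, and deposited FPKM values per assembled transcript, calculated with Cuffnorm. Cuffnorm's scaling option is not given in the sources used here. Read numbers are not part of the values, and a search for steps of single fragments found none that was clear, so the depth of each sample is unknown and no counting interval is given.

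The transcripts and the descriptions applied to them were chosen with earlier results of these data known. Adult and embryonic heart were compared with limma 3.58.1 (R 4.3.3) in one fit of 9 samples on log2(FPKM + 0.1) with an intensity trend, two-sided with Benjamini-Hochberg adjustment, for transcripts with a mean above 0.1 FPKM in at least 1 tissue type. The fit was tested on simulated data. All tissue types were simulated around the mean of each transcript, with changes only above a mean of 1 FPKM. Heart values below 0.5 FPKM beside high muscle values were therefore not reproduced. Named are the 2 transcripts highest in muscle and, between the hearts, the 2 with the largest called change in each direction. Other calculations used Python 3.11.15, numpy 2.4.6, pandas 2.3.3, and matplotlib 3.10.9. The alternatives were other thresholds, pseudocounts, filters and scalings, a replicate block, and leaving out each sample. Removing transcripts above 10000 FPKM and a rescaling over transcripts above 1 FPKM in every sample were added after seeing the data.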

Additional observations from a re-analysis of the deposited data

How the results depend on the processing

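The number of muscle-restricted transcripts followed the thresholds. It was 383 and 120 with muscle thresholds of 5 and 20 FPKM, and 99 and 326 with heart thresholds of 0.1 and 1 FPKM. It was 13 when all heart samples had to be listed at 0, 413 with thresholds on tissue means, and 182 after median-ratio rescaling. Leaving out 1 sample gave 229 to 266. The median level in muscle was 15.7 and 55.3 FPKM in the lists chosen at muscle thresholds of 5 and 20 FPKM. Over the original 224, it was 19.97 FPKM after median-ratio rescaling, and 27.5 to 30.3 FPKM without 1 muscle sample. That rescaling used all transcripts above 0 in every sample, near-zero values included. Over transcripts above 1 FPKM in every sample, it gave 228 transcripts, 223 of them among the 224. The median of the original 224 was then 29.3 FPKM.

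The share of summed muscle FPKM was 15.5% to 20.1% without 1 muscle sample, 8.65% without the highest transcript, 0.402% without the 3 transcripts above 10000 FPKM, and 2.17% with all transcripts of that size removed from both sums.

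The number of the 224 called between the hearts was 0 at a pseudocount of 1 and 29 at a pseudocount of 0.01. It was 7 at an adjusted p below 0.01, and 13 to 20 without 1 heart sample. Over all 69118 transcripts tested, these settings called 11924, 13173, 6907, and 9687 to 13358 in the same order. With a pseudocount of 1, the adjusted p in limma was 0.193 for TCONS_00083125, 0.0950 for TCONS_00029549, 0.0794 for TCONS_00065574, and 0.291 for TCONS_00063805. These were the highest adjusted p over all alternative fits, and the lowest were 0.000335, 0.00187, 0.000511, and 0.00315 in the same order. Their direction was the same in every alternative fit. Median-ratio rescaling moved the median log2 difference of all transcripts to 0.00 from 0.18. Deviations from the tissue mean had r between -0.016 and 0.071 for samples of the same replicate number. For samples of different numbers, r lay between -0.060 and 0.068. With a replicate block, 14 of the 224 and 11659 of all transcripts tested were called.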

Other observations

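Transcripts that missed the heart threshold included some with a larger difference than most of the 224. Among the transcripts above 10 FPKM in each muscle sample, 56 outside the list exceeded its median log2 difference of 7.65. Their means in muscle had a median of 378.4 FPKM, and 17 of them exceeded 1000 FPKM. Their highest heart value was at least 0.513 FPKM, with a median of 1.28 FPKM. TCONS_00091069, which had the highest level in muscle among them and is named after its values were seen, averaged 11058 FPKM in adult muscle, against 5.16 FPKM in adult heart and 12.2 FPKM in embryonic heart.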
